A study of Osmia excavata with 6 samples.

Results

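The circadian clock of the mason bee Osmia excavata was followed through 7 assembled genes, chosen by protein description. A row of the expression table was taken if its description named a clock protein and one of 9 bee genera, and up to 10 rows with the highest mean level were to be kept. Only 7 of 37061 rows matched, so the limit removed none. The mean level over all 6 libraries therefore did not decide which rows were kept, and the levels below are descriptive. RNA was sequenced from 3 water immersion libraries and 3 control libraries. Immersion was used to promote the leaving of the cocoon, and the immersion samples carry the title of a decocooning group, so an effect of wetting cannot be told apart from one of emergence. The tissue label repeats the species name, and no label used here states the sex, age, body part or hour of sampling. Nothing says that the replicates are separate animals, so p-values measure only the spread between these samples.

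In animals the clock is a loop in which proteins switch off their own genes. CLOCK (gene Clk) and CYCLE (cyc, called ARNTL or BMAL1 in mammals) form a pair that activates per, whose protein PERIOD later represses that pair. In flies a side loop is formed by vrille (vri), a repressor of Clk, and the PAR-domain gene Pdp1, an activator of it. The honey bee lacks the fly type of timeless and the light-sensing cryptochrome of flies, and uses a mammal-type cryptochrome as the partner of PERIOD. In flies the clock is known to gate adult emergence to a time of day.

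The members were Clk (TRINITY_DN1821_c0_g1, 3501 bases), 2 rows of cyc from one assembly cluster (TRINITY_DN656_c0_g4, 4283 bases, and TRINITY_DN656_c0_g2, 1429 bases), per (TRINITY_DN1025_c0_g1, 10752 bases), a gene like hepatic leukemia factor (TRINITY_DN2297_c0_g1, 6183 bases), a timeless homolog (TRINITY_DN3379_c0_g1, 4325 bases) and a second row described as circadian locomoter output cycles protein (TRINITY_DN210_c1_g2, 2690 bases). In the plots the cyc rows, and the vrille rows named later, are told apart by the end of their identifier (g4 and g2, or g3 and g2). The KEGG column placed 5 of the 7 in the fly circadian rhythm pathway. The remaining members, the timeless homolog and a second CLOCK row, carried no such entry. The timeless homolog had the human TIMELESS protein as its Swiss-Prot match. The second row described as CLOCK had the rat aryl hydrocarbon receptor (Ahr) as its match, so it is called Ahr-like below and the annotation does not settle that it is a clock gene. The patterns also searched for cryptochrome and vrille, but no row of the 9 genera had either word in its description. A cryptochrome row and 2 vrille rows were found afterwards through other annotation columns, and they are given separately.

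The libraries did not separate by treatment alone. Estimated counts summed to between 17755830 and 18666554 in the immersion libraries and between 16765886 and 19953734 in the controls. Worm reads (rows matching Caenorhabditis) made up 14100 to 15000 CPM after immersion, 3460 CPM in control 1, 0.908 CPM in control 2 and 0.208 CPM in control 3. Over the 9250 tested genes that matched a Hymenoptera genus, here called bee genes, 75.1% of the variance lay on principal component 1. On it the immersion libraries lay between -38.8 and -25.8, control 1 at -12.9, control 2 at 28.1 and control 3 at 75.4. Long transcripts were also lower after immersion than short ones: the median log2 fold change was -0.65 over 1072 bee genes of 6000 bases or more and 0.33 over 4411 genes of 1000 to 3000 bases. Results for the clock rows, and for some other rows below, are therefore also given without control 1 or control 3, with a term for worm reads, or with the length trend removed.

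Of the 7 members, 0 passed an adjusted p of 0.05 (edgeR's quasi-likelihood test, Benjamini-Hochberg), as did 0 of all 9250 bee genes (0%). The lowest adjusted p of any bee gene was 0.0639. At an unadjusted p under 0.05, per and the Hlf-like gene were lower after immersion, 2 of 7, against 20.6% of the bee genes (1906) that were lower at that p, and 14.2% were higher. With so few members, 2 of 7 is near that background. By other tools, DESeq2 called 1 member, the Hlf-like gene, lower, where it called 21.9% of bee genes in either direction and 14.8% lower. limma-voom with library weights called 4 members lower, against 32.6% of bee genes lower and 6369 of the 9250 in either direction. Without weights limma-voom called 0 members. The members' median log2 fold change, immersion minus control, was -0.43, with 6 of 7 values negative, and the median over all bee genes was 0.02. All 7 passed the filter on low counts. Fitting all rows of the table moved the median of tested genes to 0.20, and upper-quartile scaling moved it to 0.12, with member medians of -0.40 and -0.32 in those fits and 6 of 7 members negative in both.

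Levels are given first in TPM, which is scaled for transcript length. The second cyc row averaged 161 TPM over the 6 libraries, the Hlf-like gene 80.8, the first cyc row 74.5, Clk 23.7, per 22.1, the timeless homolog 5.61 and the Ahr-like row 2.61. The median bee row was at 16 TPM, and 93.8% of bee rows lay below the second cyc row and 58.3% below per. The second cyc row came first, the timeless homolog next to last and the Ahr-like row last in all 6 libraries. Clk and per lay close together and changed places in control 2, and the Hlf-like gene and the first cyc row changed places in controls 2 and 3.

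**Figure D1:**
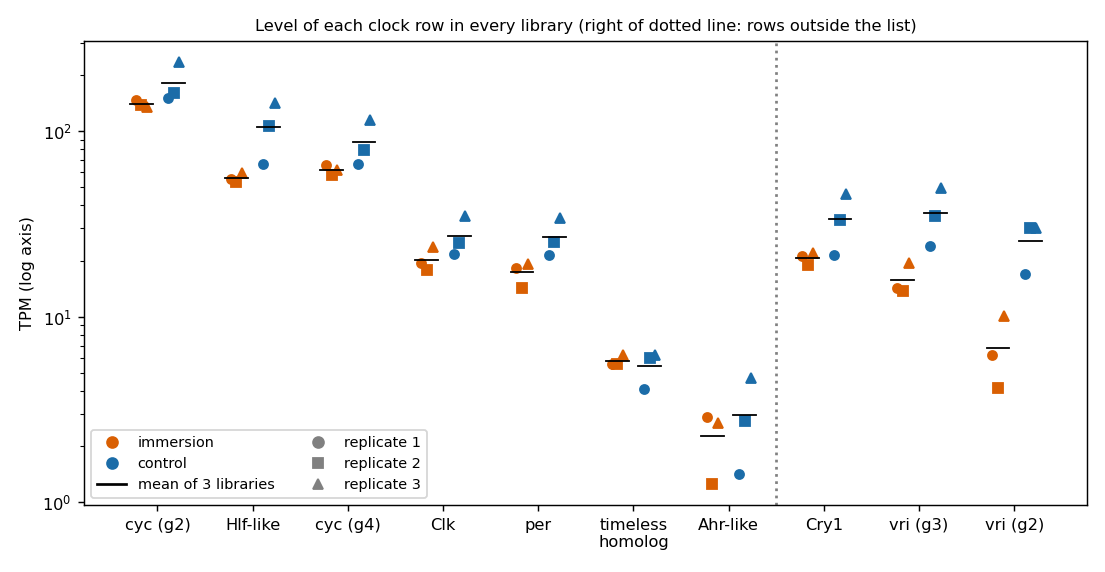
TPM on a log axis (vertical) of the 7 clock members and of 3 further clock rows right of the dotted line (horizontal), with 1 point per library, immersion in orange and control in blue, and a line at the mean of 3 libraries. Control 3 is the highest point of every member, and Clk, the timeless homolog and the Ahr-like row show overlapping groups.

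The activators come first. Clk, which encodes the CLOCK transcription factor, had 19.38, 17.77 and 23.76 TPM in immersion libraries 1, 2 and 3, against 21.72, 25.01 and 34.76 TPM in controls 1, 2 and 3. The groups overlapped, since immersion 3 stood above control 1. Its fitted log2 fold change was -0.43 ± 0.20 (SE, n = 3 each), with an adjusted p of 0.166 in edgeR. Without control 1 it was -0.55 ± 0.18 (adjusted p = 0.0386), and without control 3 it was -0.21 ± 0.14 (adjusted p = 0.318). With the term for worm reads it was -0.14 ± 0.23, and with the length trend removed -0.31 ± 0.17 (adjusted p = 0.219).

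The first cyc row, whose Swiss-Prot match is fly CYCLE, the partner of CLOCK, had 65.93, 57.98 and 62.02 TPM after immersion and 66.64, 79.55 and 114.92 TPM in the controls. The groups did not overlap, but immersion 1 and control 1 lay close together. Its log2 fold change was -0.32 ± 0.19 with an adjusted p of 0.24. It was -0.11 ± 0.14 without control 3, -0.06 ± 0.22 with the term for worm reads and -0.08 ± 0.13 with the length trend removed. The controls varied more than the immersion libraries: the SD of log2 normalised CPM (scaled by TMM factors) was 0.03 after immersion and 0.33 in controls.

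The second cyc row had 146.71, 138.01 and 134.95 TPM after immersion and 150.17, 160.11 and 234.76 TPM in controls. Its estimated counts were only 413 to 813 per library, against 2564 to 3489 for the first row. The ratio of count to TPM, scaled so that the median bee gene equals its listed length, implied 287 to 411 bases for the second row, where the table lists 1429. Only 0.432% of bee genes had a lower ratio of implied to listed length, and a short implied length raises TPM at a given count. In normalised CPM it had 26.4, 25.5 and 25.5 after immersion and 25.8, 33.1 and 57.3 in controls, and these groups overlapped. The log2 fold change was -0.58 ± 0.29 (adjusted p = 0.182). It was -0.19 ± 0.17 without control 3, -0.00 ± 0.30 with the term for worm reads and -1.07 ± 0.41 (adjusted p = 0.13) with the length trend removed, which used the listed length. Both rows come from one assembly cluster, so reads may be split between them.

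The repressor per had 18.40, 14.26 and 19.35 TPM after immersion and 21.46, 25.30 and 34.03 TPM in the controls. All 3 immersion values were below all 3 control values. In normalised CPM it had 90.1, 80.7 and 98.6 after immersion and 115, 110 and 140 in controls, again with no overlap. The log2 fold change was -0.44 ± 0.16, past 0.05 before adjustment only (adjusted p = 0.118 in edgeR). It was -0.47 ± 0.15 without control 1, -0.33 ± 0.14 without control 3 and -0.36 ± 0.20 with the term for worm reads.

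With the trend on transcript length removed, however, per had a log2 fold change of 0.24 ± 0.17, the opposite sign. At 10752 bases it is the longest member, and bee genes of 6000 bases or more had a median of -0.65 before that removal and -0.02 after it. The length implied by count over TPM for per was 8533, 9139 and 8698 bases after immersion and 8954, 7648 and 6923 bases in controls. That is a log2 ratio of 0.16 between the groups, where the median absolute ratio over bee genes was 0.04 and the 90th percentile 0.19. The log2 ratio of mean TPM for per was -0.64, a larger difference than that fitted to the counts.

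The Hlf-like gene encodes a bZIP transcription factor by its protein domain, and its KEGG entry is in the fly clock pathway, where the PAR-domain factor Pdp1 activates Clk. It had 55.25, 53.45 and 59.88 TPM after immersion and 66.55, 107.32 and 142.40 TPM in controls. The groups did not overlap, and the immersion libraries lay close together while the controls were spread. Its log2 fold change of -0.85 ± 0.24 was the largest of the members (adjusted p = 0.0926 in edgeR, adjusted p = 0.0149 in DESeq2).

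Without control 1 the Hlf-like gene had -1.05 ± 0.17 (adjusted p = 0.00756) and without control 3 it had -0.59 ± 0.18 (adjusted p = 0.0768). It had -0.30 ± 0.22 with the term for worm reads and -0.33 ± 0.14 (adjusted p = 0.147) with the length trend removed. It kept its negative sign in all 21 alternative fits, with values between -1.05 and -0.30. Clk and both cyc rows also kept theirs in all 21, though the second cyc row reached -0.00. These fits all draw on the same 6 libraries.

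The timeless homolog is related to a gene that in mammals acts mainly in DNA replication and repair. It had 5.54, 5.57 and 6.23 TPM after immersion and 4.06, 6 and 6.26 TPM in controls. The groups overlapped, with control 1 the lowest of the 6 libraries. It was the only member with a positive log2 fold change, 0.15 ± 0.21 (adjusted p = 0.601). It was 0.00 ± 0.16 without control 1, 0.26 ± 0.20 without control 3, 0.49 ± 0.22 with the term for worm reads and 0.40 ± 0.16 (adjusted p = 0.138 in edgeR) with the length trend removed.

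The Ahr-like row had 2.88, 1.25 and 2.67 TPM after immersion and 1.42, 2.73 and 4.70 TPM in controls. The groups overlapped and single libraries differed by more than the groups did, on 44 to 125 estimated counts per library. The log2 fold change was -0.34 ± 0.47 (adjusted p = 0.593), and it changed sign to 0.17 ± 0.40 without control 3 and to 0.65 ± 0.55 with the term for worm reads.

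**Figure D2:**
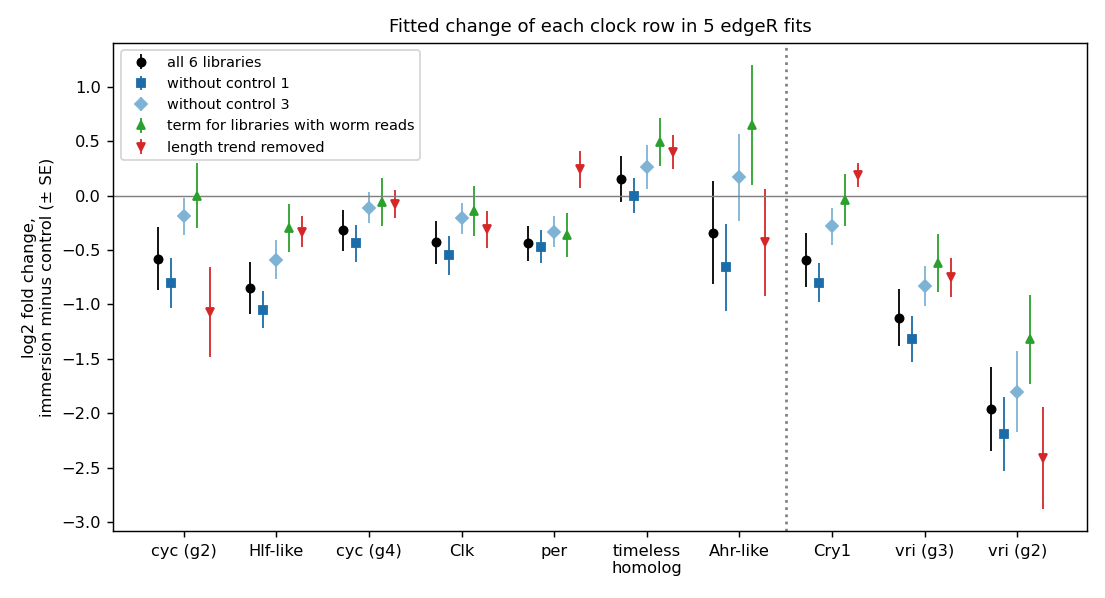
Log2 fold change, immersion minus control, with its SE (vertical) for each clock row (horizontal) in 5 edgeR fits: all 6 libraries, without control 1, without control 3, with a term for libraries with worm reads, and with the length trend removed. Most members lie below 0 in the fit of 6 libraries and nearer to 0 without control 3, and per lies at 0.24 with the length trend removed.

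In TPM 4 of the 7 members had groups that did not overlap, all lower after immersion, where 19.8% of bee genes were lower without overlap and 24.9% were higher. The 4 were both cyc rows, per and the Hlf-like gene. By normalised CPM the count was also 4 (22.2% of bee genes lower), with Clk in place of the second cyc row. Leaving out control 1, 4 of 7 members were called lower at an adjusted p of 0.05. They were Clk, the second cyc row, per and the Hlf-like gene. In that fit 26.6% of bee genes were called lower, and 4912 of 9396 were called in either direction. Without control 1, however, all immersion libraries and no control held more than traces of worm reads, so the treatment and those reads cannot be told apart there. Without control 3 the count was 0 of 7, against 2.98% of bee genes, and the members' median log2 fold change was -0.19. With the term for worm reads, which in effect sets immersion against control 1, the median was -0.06, with 0 of 7 lower at an unadjusted p under 0.05, against 4.89% of bee genes.

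The members shared one pattern across the controls. Control 3 was the highest of the 6 libraries in 7 of 7 members, where it was the highest in 36.9% of bee genes. Control 1 was the lowest of the 3 controls in 7 of 7, against 43.8% of bee genes. These shares were not tested against each other, and members that vary together are not independent. Relative to each member's own mean of log2 TPM, control 3 lay between 0.17 (timeless homolog) and 0.99 (Ahr-like) above it. Control 1 lay between -0.17 and 0.01 for per, Clk, both cyc rows and the Hlf-like gene. The immersion libraries were alike, with an SD of log2 normalised CPM of 0.02 to 0.14 in 6 members and 0.53 in the Ahr-like row. In controls it was 0.18 to 0.76. The median over bee genes was 0.12 after immersion and 0.37 in controls, and a larger control SD was seen in 7 of 7 members and in 86% of bee genes.

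**Figure D3:**
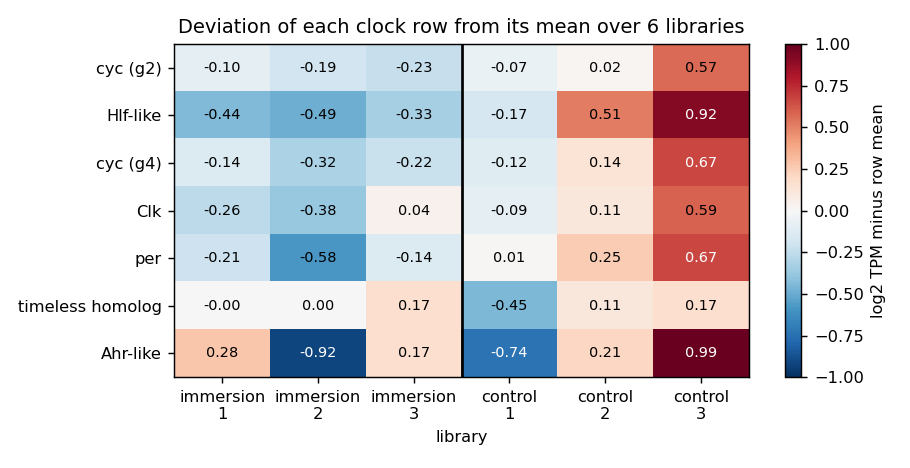
Log2 TPM of each member (rows) in each library (columns, immersion left of the line, control right), minus the member's mean over 6 libraries, as colour and number. Control 3 is the highest value in every row (in the timeless homolog by less than the printed decimals against immersion 3), and control 1 lies near 0 for Clk, per and both cyc rows.

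The clock rows found outside the description rule were chosen after their values were seen. The cryptochrome row (TRINITY_DN8844_c0_g1, Swiss-Prot name Cry1, 11199 bases) is described only as an uncharacterized protein. It had 21.18, 19.11 and 21.98 TPM after immersion and 21.49, 33.19 and 45.71 TPM in controls. Control 1 lay inside the range of the immersion libraries and the other controls above it. Its log2 fold change was -0.59 ± 0.25 (adjusted p = 0.147). It was -0.28 ± 0.17 without control 3, -0.04 ± 0.24 with the term for worm reads and 0.19 ± 0.11 with the length trend removed.

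The 2 vrille rows carried vrille as their KEGG orthology description. The longer one (TRINITY_DN1908_c1_g3, 4982 bases) had 14.24, 13.85 and 19.47 TPM after immersion and 24.06, 34.83 and 49.59 TPM in controls. The groups did not overlap, and the log2 fold change was -1.12 ± 0.26 (adjusted p = 0.0907 in edgeR, adjusted p = 0.00346 in DESeq2). The shorter row (TRINITY_DN1908_c1_g2, 1159 bases) is described as a histone methyltransferase of a wasp and had 53 to 300 estimated counts per library. It had 6.22, 4.14 and 10.09 TPM after immersion and 16.98, 29.97 and 30.14 TPM in controls, with a log2 fold change of -1.96 ± 0.39 (adjusted p = 0.0891). Both are of one assembly cluster and may be parts of the same transcript. Without control 3 their values in edgeR were -0.83 ± 0.18 (adjusted p = 0.0454) and -1.80 ± 0.37 (adjusted p = 0.0422). With the length trend removed they were -0.75 ± 0.18 (adjusted p = 0.0788) and -2.41 ± 0.47 (adjusted p = 0.0697). With the term for worm reads, in effect against control 1 alone, they were -0.62 ± 0.27 and -1.32 ± 0.41. They were negative in all 21 alternative fits. Because Cry1 and the vrille rows were added after their values were seen, a count that includes them is descriptive only. The vrille rows may also count the same transcript again. With these rows added, 4 of 10 clock rows were lower at an unadjusted p under 0.05, where 20.6% of bee genes were. With the term for worm reads it was 1 of 10, against 4.89%.

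Ratios between clock genes within a library remove the scaling of the library. The ratio of per to Clk in TPM was 0.949, 0.802 and 0.814 after immersion and 0.988, 1.01 and 0.979 in controls. The groups did not overlap in TPM, with a difference of mean log2 ratio of -0.22. The two-sided exact permutation p was 0.1, the smallest that 3 against 3 libraries allow, and 0.4 adjusted over 4 ratios. In normalised CPM, which does not use the implied length, the difference was -0.03 (exact p = 0.8). The implied length itself differed between the groups by 0.16 for per and by -0.01 for Clk, as log2 ratios, so the lower ratio was seen in TPM and not in counts. The ratio of the longer vrille row to the Hlf-like gene was 0.258, 0.259 and 0.325 after immersion and 0.362, 0.325 and 0.348 in controls (difference -0.30, exact p = 0.2, adjusted 0.4), and the difference was -0.59 (exact p = 0.1) with rows summed per protein. Per to Cry1 averaged 0.832 ± 0.0743 after immersion and 0.835 ± 0.142 in controls (SD, n = 3 each, exact p = 0.9). Clk to the first cyc row averaged 0.328 ± 0.0483 after immersion and 0.314 ± 0.0117 in controls (SD, n = 3 each, exact p = 0.9).

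Likeness of profiles was measured as the root mean square difference of log2 normalised CPM over the 6 libraries, each gene centred on its mean. Clk and the first cyc row differed by 0.0936, per and Clk by 0.112, per and the first cyc row by 0.15, per and the Hlf-like gene by 0.291 and per and the timeless homolog by 0.337. Genes outside the list came closer. For per the nearest were nxn (TRINITY_DN6440_c0_g2, 0.0384), Tmem259 (TRINITY_DN3006_c0_g1, 0.0388) and nkd (TRINITY_DN15621_c0_g1, 0.0476), and 93 bee genes lay within 0.1. For Clk the nearest were INF2 (TRINITY_DN22937_c0_g1, 0.0369), TTC4 (TRINITY_DN1684_c0_g1, 0.0374) and a row like cordon-bleu protein 1 (TRINITY_DN3426_c0_g1, 0.0378), and 217 lay within 0.1. The names nkd, INF2 and TTC4 are Swiss-Prot matches, and these rows are described only as uncharacterized proteins.

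Genes that act around the clock were taken from a list of protein descriptions: the kinases and phosphatases that modify clock proteins, the ubiquitin ligases that mark them for destruction, nuclear receptors, RNA-binding proteins and output channels. It held 48 rows, of which 40 were tested. A few entered by wording alone, such as RBM42, RBM45 and HR38. No row passed at an adjusted p of 0.05 (0 of 40 in edgeR). DESeq2 called 14 of the 40 at that threshold, all lower, where it called 14.8% of bee genes lower and 21.9% in either direction. In edgeR at an unadjusted p under 0.05, 14 were lower (35%) and 2 higher, against 20.6% and 14.2% of bee genes. The median log2 fold change was -0.25, against 0.02 over bee genes, and 0.06 with the length trend removed, where the bee median was also 0.06. With the length trend removed 9 were lower and 7 higher at that p, where 1504 and 1501 of the 9250 bee genes were. With the term for worm reads 5 were lower and 0 higher, where 452 and 251 bee genes were.

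The lowest p in that list was that of shaggy (sgg, TRINITY_DN1404_c1_g1), the bee's glycogen synthase kinase 3, which in flies phosphorylates clock proteins. It had 55.74, 42.44 and 49.49 TPM after immersion and 98.54, 161.70 and 204.06 TPM in controls. The highest immersion library lay well below the lowest control. The log2 fold change was -1.55 ± 0.28 (adjusted p = 0.08 in edgeR, adjusted p = 4.29e-05 in DESeq2). In edgeR it was -1.79 ± 0.18 (adjusted p = 0.00611) without control 1, where 26.6% of bee genes were called lower. It was -1.26 ± 0.21 (adjusted p = 0.0237) without control 3, where 2.98% were called lower. With the length trend removed it was -1.39 ± 0.23 (adjusted p = 0.0631). With the term for worm reads, in effect against control 1 alone, it was -0.88 ± 0.22.

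E75, a nuclear receptor of the moulting hormone response that in flies also acts on clock genes, was split over several rows. The row TRINITY_DN388_c1_g4 had 14.51, 11.43 and 18.57 TPM after immersion and 23.80, 41.50 and 58.05 TPM in controls (log2 fold change -1.42 ± 0.32, adjusted p = 0.0907, and -0.70 ± 0.28 with the term for worm reads). Its neighbour TRINITY_DN388_c1_g2, with the highest level, had 333.60, 343.23 and 343.61 TPM after immersion and 300.35, 352.96 and 477.63 TPM in controls. There the groups overlapped, with -0.45 ± 0.24. A low row, Eip75B (TRINITY_DN5442_c0_g4), averaged 2.55 ± 0.375 TPM after immersion and 5.69 ± 2.23 TPM in controls (SD, n = 3 each).

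Among the other rows with a low p, lark (TRINITY_DN242_c0_g1), an RNA-binding protein of the fly clock, averaged 325 ± 32.8 TPM after immersion and 546 ± 150 TPM in controls (SD, n = 3 each), with no overlap. The Fos factor kay (TRINITY_DN4337_c0_g1) averaged 147 ± 32.1 TPM after immersion and 234 ± 27.3 TPM in controls. The potassium channel slo (TRINITY_DN581_c0_g1), an output of the fly clock, averaged 27.2 ± 3.08 TPM after immersion and 55.4 ± 23.5 TPM in controls. A regulatory subunit of protein phosphatase 2A, PPP2R5D (TRINITY_DN1084_c1_g1), averaged 37.2 ± 3.11 TPM after immersion and 66.1 ± 19.6 TPM in controls. Neurofibromin, Nf1 (TRINITY_DN17_c0_g1), was at 14.90, 14.14 and 14.21 TPM after immersion and 18.26, 18.45 and 18.58 TPM in controls, with 3 controls that lay close together. All of these were lower at an unadjusted p under 0.05 and none at an adjusted p of 0.05 in edgeR. At 8733, 6122 and 11904 bases, slo, PPP2R5D and Nf1 had log2 fold changes of -0.97, -0.66 and -0.55. The median of bee genes of 6000 bases or more was -0.65. At 3216 and 4234 bases, lark and kay had -0.66 and -0.64, where the median from 3000 to 6000 bases was -0.21. Values with the length trend removed or the worm term are not given for these rows.

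Casein kinase I alpha (TRINITY_DN1743_c1_g1), of the kinase family that in flies includes the PERIOD kinase doubletime, averaged 73.2 ± 3.89 TPM after immersion and 81.1 ± 6.44 TPM in controls (SD, n = 3 each; log2 fold change -0.11 ± 0.14). The row whose match is casein kinase I epsilon, Csnk1e (TRINITY_DN2105_c0_g1), was picked after its values were seen. It had 49.78, 44.15 and 47.92 TPM after immersion and 54.85, 82.01 and 95.95 TPM in controls, with -0.70 ± 0.23 (adjusted p = 0.105). At 11010 bases this row lies in the length class with a median of -0.65. The beta subunit of casein kinase II (TRINITY_DN460_c0_g1) averaged 82.8 ± 7.75 TPM after immersion and 65.5 ± 22.2 TPM in controls. The receptor of the clock neuropeptide PDF, Pdfr (TRINITY_DN6702_c0_g3), was low, at 1.59, 1.10 and 2.19 TPM after immersion and 1.59, 1.87 and 1.86 TPM in controls. The nuclear receptor HR3 (Hr46, TRINITY_DN2987_c0_g1) had 8.51, 5.70 and 8.48 TPM after immersion and 7.80, 13.35 and 20.04 TPM in controls. The 2 rows higher at an unadjusted p under 0.05, named because they were the only such rows among the 40, were both subunits of protein phosphatase 2A, ppp2r3c (TRINITY_DN2121_c0_g1, 0.90 ± 0.35) and PPP2CA (TRINITY_DN1946_c0_g2, 0.39 ± 0.16).

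**Figure D4:**
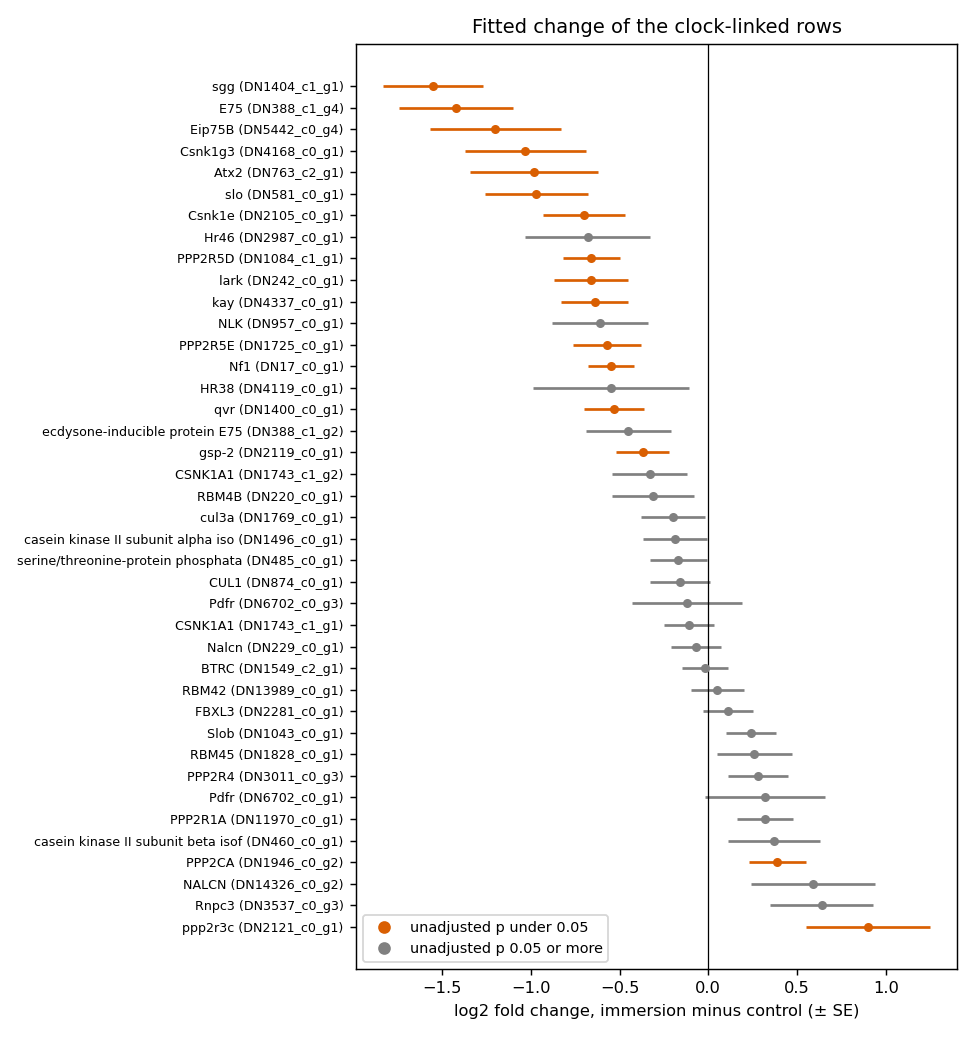
Log2 fold change, immersion minus control, with its SE (horizontal) of the 40 tested rows that act around the clock (vertical, ordered by value), in orange where the unadjusted p was under 0.05. Shaggy and E75 lie lowest, at -1.55 and -1.42, and ppp2r3c highest, at 0.90.

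Clock genes are expressed in nerve cells and in peripheral tissues, and fewer cells of a type cannot be told apart from less RNA per cell in such samples. Of 41 rows that mark the nervous system and eye, 36 were above 0 in all 6 libraries and 1 was at 0 in all. Their summed level was 967 to 1022 TPM after immersion and 1123 to 1422 TPM in controls. Their median log2 fold change was -0.68 over 35 tested rows, with 19 lower at an unadjusted p under 0.05. With the length trend removed it was -0.23 (13 lower, where 1504 of 9250 bee genes were), and with the term for worm reads -0.22. The lists that follow were summarised only in the edgeR fit with treatment as the single term. Muscle markers had a median of -0.86 over 41 tested rows (25 lower), fat body markers -0.65 over 8 (4 lower), gut markers 0.08 over 35 (4 lower, 2 higher) and germ line markers 0.17 over 14 (1 lower, 2 higher). The shares lower were 54.3% in nervous system and eye, 61% in muscle, 50% in fat body, 11.4% in gut and 7.14% in germ line. Over all bee genes 20.6% were lower and 14.2% higher at that p. These shares were not tested against each other. The summed muscle level overlapped, at 20005 to 33667 TPM after immersion and 27455 to 28605 TPM in controls. Some rows entered these lists by wording alone. In the gut list 17 of 46 rows were tubulin polyglutamylases or protease inhibitors, and both higher rows were among them, while all 4 lower rows were digestive enzymes. The remaining 23 tested gut rows had a median of -0.12. In the nervous system list 11 of 41 rows were relatives of the intended proteins, and without them the median was -0.64 over 26 tested rows, with 15 lower. Without the vitellogenin receptor the fat body median was -1.15 over 7 rows, of which 4 were lower at that p and 3 had positive values. The summed fat body level also overlapped, at 7360, 8122 and 6509 TPM after immersion and 6068, 10563 and 29524 TPM in controls 1, 2 and 3. The muscle list was not split in this way. Some of its rows described as titin had other Swiss-Prot names, such as RSF1, Phf10 and NELFE, and were kept. The part of these tissues in the clock values was not tested.

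**Figure D5:**
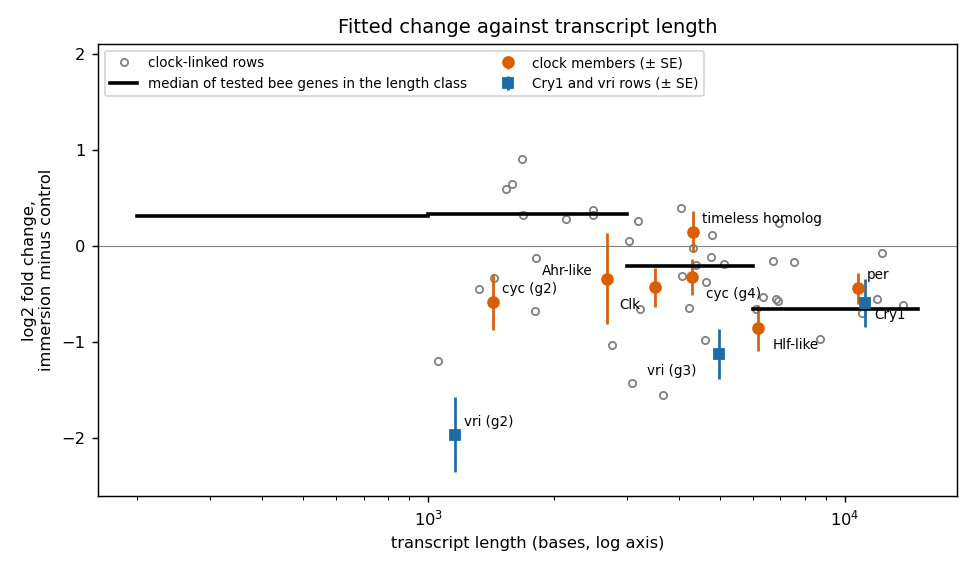
Log2 fold change, immersion minus control (vertical), against transcript length in bases on a log axis (horizontal), for the clock members and the Cry1 and vrille rows with SE and for the clock-linked rows. Black lines give the median of bee genes in 4 length classes, from 0.31 under 1000 bases to -0.65 at 6000 bases or more, and per, Cry1 and the Hlf-like gene lie in the longest class.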

How the data were processed

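The authors deposited estimated counts and TPM values per assembled gene, with lengths and annotation; per the submitters' processing notes, cutadapt 1.9, Salmon and edgeR were used, without stated roles. Identifiers are in the style of the Trinity assembler. Index and annotation settings were not stated there, and genome coordinates were not used here. Rows naming a Hymenoptera genus (11315) were kept, estimated counts were rounded, and edgeR 4.0.16 in R 4.3.3 was run (filterByExpr, TMM, estimateDisp, glmQLFit with legacy dispersion, treatment as the only term, two-sided, Benjamini-Hochberg over 9250 genes). Fold changes are immersion minus control. The SE of an edgeR fold change was back-calculated, as its absolute value over the square root of the quasi-likelihood F statistic. It therefore uses a dispersion moderated over genes. Alternatives used DESeq2 1.42.0 and limma 3.58.1, other normalizations, filters and row sets, log2(TPM + 1) and log2(TPM + 0.1), a loess trend on length (span 0.3), a replicate block, a term for libraries with over 100 worm CPM, and each library left out. The code was tested on simulated data. Reads of paralogs or of split assemblies cannot be assigned with certainty.

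The members, lists, tests and the alternatives were chosen with earlier results of these data known. Named genes of the clock-linked list were the 8 with the smallest p and the most abundant row of 7 kinds of gene (the kinases, receptors and lark); for likeness, the 3 nearest genes to per and to Clk. Csnk1e, the 2 rows with higher values (ppp2r3c and PPP2CA), Cry1, the vrille rows and the split of marker lists by wording were chosen after values were seen.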

Additional observations from a re-analysis of the deposited data

Results flagged for a closer look

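A row described as the timeless homolog of the worm Caenorhabditis elegans (TRINITY_DN9936_c0_g1) lay outside all comparisons above. It had 2.48, 1.66 and 1.77 TPM after immersion and 0.89, 0 and 0 TPM in controls 1, 2 and 3, so that its lowest immersion value, 1.66 TPM, stood above every control. The worm reads of the libraries were likewise highest after immersion, and this row was not counted with the bee's timeless homolog.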

How the results depend on the processing

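All bee genes called numbered 0 in edgeR, 2028 in DESeq2, 6369 in limma-voom with library weights, 28 with the length trend removed, 1 with the term for worm reads and 0 to 4912 with single libraries left out (highest without control 1, and 362 without control 3). Clock members called numbered 0 in edgeR, 1 in DESeq2, 4 in limma-voom with weights and 0 to 4 with single libraries left out. Members lower at an unadjusted p under 0.05 numbered 2, but 4 in limma-voom with weights, 0 with the worm term, 1 to 5 with single libraries left out (1 without immersion 1 or immersion 2, 5 without control 1) and 4 with Cry1 and the vrille rows, which were added after seeing the data. Of 9250 bee genes, 1906 were lower at that p in edgeR, 3144 in limma-voom with weights and 452 with the worm term. The count was 2801 of 9396 without control 1, 1205 of 9395 without immersion 1 and 969 of 9401 without immersion 2. Clock-linked genes called numbered 0 in edgeR, 14 in DESeq2, 26 in limma-voom with weights and 0 to 22 with single libraries left out (22 without control 1, 2 without control 3). The log2 fold change of per was 0.24 with the length trend removed. That of the Ahr-like row was 0.65 with the worm term and -0.66 to 0.17 with single libraries left out. The log2 difference of the ratio of per to Cry1, 0.00, was -0.07 to 0.14 with single libraries left out. That of Clk to cyc, 0.05, was -0.11 in normalised CPM, -0.02 with rows summed per protein and -0.07 to 0.13 with single libraries left out. The causes were not tested. No pairing by replicate number was seen. In deviations from the group means, same-numbered libraries correlated at -0.15, 0.14 and 0.16, not each best with its own number. With 3 libraries per group such deviations are not independent, so they cannot decide whether the samples were paired. With the replicate block 0 genes and 0 members were called and 2 members were lower at an unadjusted p under 0.05. At 44 to 125 counts per library, the Ahr-like row could show only large differences.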
